A study of Mus musculus with 18 samples.

Results

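The 10 genes described here act at the decision of a cell to enter or leave the division cycle. They are 7 inhibitors of cyclin-dependent kinases (CDKs) and the 3 D cyclins, taken by exact gene name from a table of 38046 genes. The Cip/Kip inhibitors are Cdkn1a (p21), Cdkn1b (p27) and Cdkn1c (p57). The INK4 genes are Cdkn2a (p16Ink4a, and also p19Arf, which is not an INK4 protein), Cdkn2b (p15), Cdkn2c (p18) and Cdkn2d (p19Ink4d). The D cyclins are Ccnd1, Ccnd2 and Ccnd3.

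D cyclins are made when mitogens are present, and they switch on CDK4 and CDK6. These kinases phosphorylate the RB family of pocket proteins, which releases E2F factors to turn on the genes of S phase. INK4 proteins bind CDK4 and CDK6 and keep the D cyclins off, while Cip/Kip proteins hold the later CDK2 complexes. In the oligodendrocyte lineage, progenitors divide under platelet-derived growth factor and stop dividing as they differentiate under thyroid hormone, and p27 is the inhibitor best known for that exit.

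Total RNA was sequenced from mouse oligodendrocyte progenitor cells (OPCs), kept as clonal lines that had been made from primary neural stem cells. Of the 18 libraries, 9 came from the control clones D7, D3 and E8, and 9 from clones 3F, D6 and 7F that lack Thap1 (called null here). Thap1 encodes a zinc-finger transcription factor that is mutated in an inherited dystonia. Each clone gave 1 library as OPCs in growth medium with PDGF-AA (day 0), 1 after 2 days (DIV2) and 1 after 4 days (DIV4). The DIV2 and DIV4 cells of both genotypes were in oligodendrocyte differentiation medium with T3 thyroid hormone at 40 μg/ml. The labels name no other allele or agent and do not say how the null clones were made. Since a genotype is 3 clonal lines, and nothing says that they came from separate animals, p-values measure the spread between these clones.

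The deposited values are TPM, a measure relative to the whole library and corrected for transcript length, so levels can be compared between genes. Each library sums to 1000000 TPM, and 3 noncoding features (Gm26924, Gm15662 and mmu-mir-6236) held 64.8% to 88.0% of it in the control OPC libraries, against 0.359% to 34.8% in the other 15. Levels below are therefore TPM rescaled by median-of-ratios factors, which were 0.125 to 0.317 in the control OPCs and 0.723 to 2.01 elsewhere. Without rescaling, the median log2 change of all tested genes from OPC to DIV2 was 1.96 in control and 0.32 in null; after rescaling it was 0.03 and -0.01. Changes were tested with limma on log2(rescaled TPM + 1) over the 12894 genes whose deposited mean reached 1 TPM, and a gene was called at an adjusted p under 0.05. A fold is the ratio of 2 mean rescaled TPM values, while a log2 change or difference is limma's on log2(rescaled TPM + 1), which is smaller for low genes, so one does not convert into the other. Of the 10 members, 8 passed that filter; Cdkn1c (mean 0.853 TPM as deposited) and Ccnd2 (0.291 TPM) did not and are given as levels. Sequencing depth is unknown, so precision rests on the 3 clones of each group.

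The protein-coding transcripts of Thap1 had 4.04 ± 0.589, 2.40 ± 0.446 and 2.98 ± 0.716 rescaled TPM in control at the 3 stages and 0.616 ± 0.149, 0.554 ± 0.186 and 0.472 ± 0.281 in null (SD, n = 3 each), with no overlap. Summed over all its transcripts, noncoding ones included, Thap1 was higher in null OPCs, at 10.6 ± 1.20 against 6.04 ± 1.89 (limma adjusted p = 0.0357). The 6 OPC markers (Pdgfra, Cspg4, Ptprz1, Sox10, Olig2 and Gpr17) summed to 322 to 456 rescaled TPM in the OPC libraries. Their sum was still 175 to 276 at DIV2 and 229 to 290 at DIV4. Mbp, which encodes myelin basic protein and marks oligodendrocytes, was at 4.49 to 88.7 rescaled TPM in OPCs, 365 to 1548 at DIV2, 665 to 4770 in control at DIV4 and 91.5 to 574 in null at DIV4. The control D3 OPC library stood apart. Its Mki67, the proliferation antigen, was 1.44 rescaled TPM against 25.8 in D7 and 31.5 in E8, and its Mbp was 88.7 against 7.13 and 4.49. Results for the members and counts for the gene lists that rest on control OPCs are given without it where a call, a direction or the size moved.

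Other lineages were checked in the same way. The 6 astrocyte markers summed at DIV4 to 13.95, 240 and 497 rescaled TPM in the control clones D7, D3 and E8 and to 277, 194 and 292 in null 3F, D6 and 7F, against 17.6 to 92.4 in the 12 earlier libraries. In these null clones most of the sum was Aldoc (184, 95.2 and 143) and Gfap (84.1, 80.0 and 138). Their Slc1a3 (3.39, 9.11 and 6.39) was below that of null OPCs (9.71, 10.7 and 9.47), and their Aqp4 was at most 0.199. Slc1a2 and Aldh1l1 were higher than in null OPCs. Control D3 and E8 had Slc1a3 at 27.3 and 75.5 and Aqp4 at 3.06 and 6.71. The 5 microglial markers summed to at most 4.60 with C1qa at 0, and the 7 mesenchymal and vascular markers to at most 4.79 with Cldn5 at 0. The 6 neuronal markers summed to 67.0 to 156, and Rbfox3 was at most 2.45. Most of the sum was Map2 (19.3 to 129) and Tubb3. Tubb3 was 4.41 to 22.2 in OPCs and 36.2 to 87.8 at DIV4, higher in each clone, while Map2 was lower at DIV4 than in OPCs in each clone.

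The members did not move as a block when the clones left the growth medium. Ccnd1 and Cdkn2c, a cyclin and an inhibitor, fell together in both genotypes. Cdkn1b and Cdkn1a were called higher by DIV4 in the null clones, and Cdkn2d was called lower there. With all libraries, no member's change was called different between genotypes. In control clones 0 of the 8 tested members rose and 3 fell at DIV2, where 33.7% of all tested genes were called (17.3% higher and 16.4% lower). At DIV4 in control 0 rose and 2 fell, beside 31.2% of all genes (15.9% and 15.3%). In null clones 0 rose and 2 fell at DIV2, beside 26.9% (13.9% and 13%), and 2 rose and 3 fell at DIV4, beside 32.5% (16.3% and 16.2%). The members' median log2 change was -0.70 and -0.25 in control and -0.15 and -0.07 in null, and that of all genes lay between -0.01 and 0.05. Without the control D3 OPC library the calls in control were 4 at DIV2 and 4 at DIV4, beside 39.6% and 37.9% of all genes. On the deposited TPM 4 members were called higher at DIV2 and 7 at DIV4 in control, as were 83.1% and 87.9% of all genes, while in null 2 fell at DIV2 (3.51% of all genes lower) and 2 rose and 2 fell at DIV4 (18.2% higher and 4.42% lower). The DIV2 and DIV4 comparisons of a genotype share their OPC libraries.

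**Figure D1:**
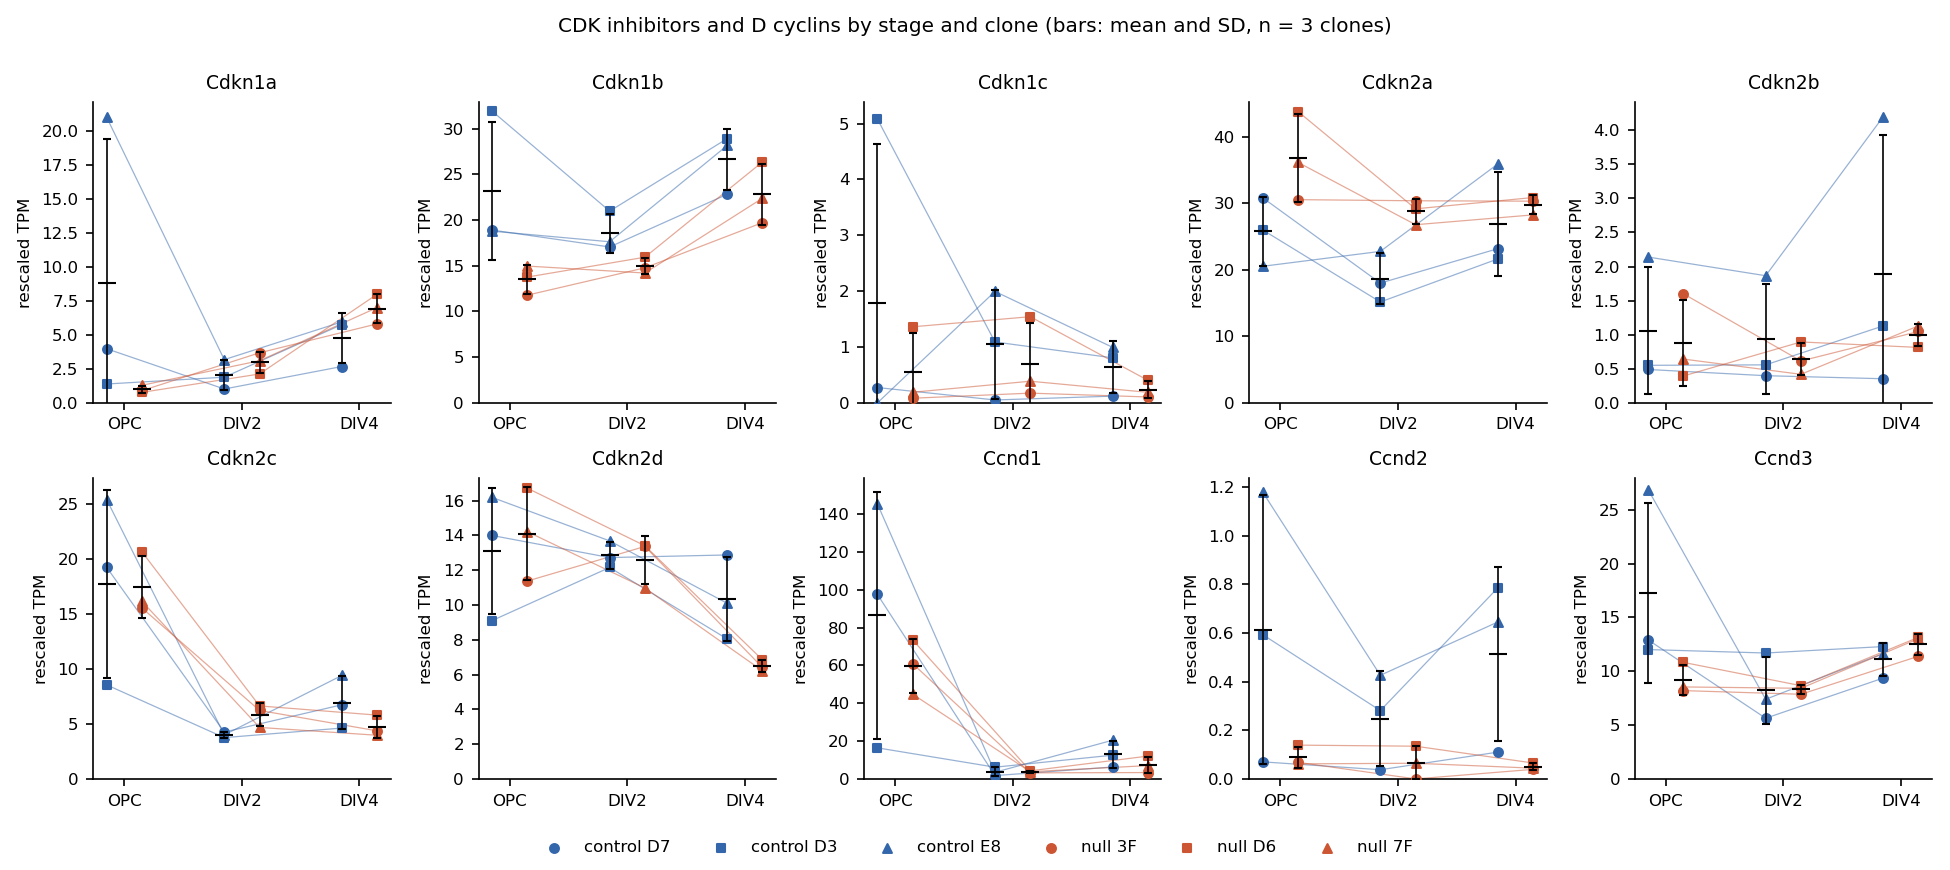
Rescaled TPM (vertical axis, from 0) of each of the 10 genes at the 3 stages, with 1 point per clone, thin lines joining the libraries of a clone, and black bars for the mean and SD of 3 clones (control blue, null orange; bars that would pass below 0 are clipped at 0). Ccnd1 and Cdkn2c drop from OPC to DIV2 in each clone, while Cdkn1b stays between 11.8 and 31.9 throughout.

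Cyclin D1 was the member with the widest range. Ccnd1 (chr7:144929931-144939925, GRCm38, minus strand) had 97.5, 16.4 and 145 rescaled TPM in control D7, D3 and E8 OPCs and 60.9, 73.5 and 44.8 in null 3F, D6 and 7F OPCs. At DIV2 the same clones had 1.76, 6.20 and 3.51 in control and 3.21, 4.28 and 3.81 in null, so every clone was below every OPC library. By group mean, Ccnd1 was the most abundant member in OPCs of both genotypes and ranked 6 of 10 at DIV2. In the control D3 OPC library Ccnd1 lay below Cdkn1b (31.9) and Cdkn2a (26.0). The mean was 22.6-fold lower at DIV2 in control, and the log2 change was -3.82 (SE 0.65, limma adjusted p = 0.000617, lower in 3 of 3 clones). In null it was 15.9-fold lower, with a log2 change of -3.65 (SE 0.65, limma adjusted p = 0.00103, lower in 3 of 3 clones). Fewer cells that express a gene and less of its RNA per cell cannot be told apart in such bulk samples. Without the D3 OPC library the control change was -4.75 (limma adjusted p = 8.94e-06), and on the deposited TPM it was -1.27 (limma adjusted p = 0.0805).

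At DIV4 the level lay between those of OPCs and DIV2. Ccnd1 was 6.29, 12.5 and 20.5 rescaled TPM in control D7, D3 and E8 and 3.36, 12.1 and 7.04 in null 3F, D6 and 7F, higher than at DIV2 in 6 of 6 clones. That difference was not called in either genotype: the log2 change from DIV2 was 1.52 in control (SE 0.65, limma adjusted p = 0.415) and 0.70 in null (SE 0.65, limma adjusted p = 0.662). Against OPCs, Ccnd1 was 6.60-fold lower in control, with a log2 change of -2.30 (SE 0.65, limma adjusted p = 0.0159), and 7.98-fold lower in null, with a log2 change of -2.95 (SE 0.65, limma adjusted p = 0.00309). In control the groups overlapped, because E8 at DIV4 was above D3 as an OPC. The control call was lost without the D7 OPC library (-1.98, limma adjusted p = 0.0662), the E8 OPC library (-1.69, limma adjusted p = 0.076) or the D7 DIV4 library (-1.89, limma adjusted p = 0.0657) and in a fit on the 6 libraries compared (limma adjusted p = 0.199), and held without D3 OPCs (-3.23, limma adjusted p = 0.000239). On the deposited TPM the control change was 0.37 (limma adjusted p = 0.592) and the null change -2.52 (limma adjusted p = 0.0105).

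Cyclin D3 moved far less. Ccnd3 (chr17:47505051-47599691, plus strand) had 12.9, 12.02 and 26.9 rescaled TPM in control OPCs, 5.64, 11.7 and 7.40 at DIV2 and 9.37, 12.3 and 11.7 at DIV4. The null clones had 8.21, 10.8 and 8.55 as OPCs, 7.87, 8.66 and 8.42 at DIV2 and 11.4, 13.2 and 13.03 at DIV4. Every control clone was lower at DIV2 than as OPCs, D3 by little, and every null clone was highest at DIV4. In control the log2 change at DIV2 was -0.95 (SE 0.26, limma adjusted p = 0.0127), and -1.14 without D3 OPCs (limma adjusted p = 0.00494). The call was lost without the E8 OPC library (-0.59, limma adjusted p = 0.0519) or the D7 DIV2 library (-0.73, limma adjusted p = 0.0654), in a fit on the 6 libraries compared (limma adjusted p = 0.157) and when libraries were scaled to their protein-coding total (-0.31, limma adjusted p = 0.319). The deposited TPM gave 1.497 in the other direction (limma adjusted p = 0.00071). In null the change was -0.12 at DIV2 (limma adjusted p = 0.779) and 0.41 at DIV4 (limma adjusted p = 0.248). Ccnd3 overlaps Bysl on the other strand and shares 4.32% of its 31-base words with other genes, mainly its pseudogene.

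Cyclin D2 was barely present. Ccnd2 (chr6:127125162-127152193, minus strand) lay between 0 and 1.18 rescaled TPM, with 1 null library at 0. It was 0.0701, 0.593 and 1.18 in control D7, D3 and E8 OPCs and at most 0.139 in the null libraries. The genotypes overlapped in OPCs and at DIV2, where control D7 was low, and did not overlap at DIV4, with 0.110, 0.786 and 0.646 in control against 0.0393, 0.0654 and 0.0443 in null. Fitted without the filter on low values, no Ccnd2 difference was called.

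Within each library the D cyclins can be compared with no scaling at all. Ccnd1 made up 88.2%, 56.6% and 83.8% of the D cyclin TPM in control D7, D3 and E8 OPCs and 88.0%, 87.0% and 83.9% in the null OPCs. At DIV2 it was 23.7%, 34.1% and 30.99% in control and 29.0%, 32.7% and 30.97% in null, so that Ccnd3 was the leading D cyclin in all 6 libraries. At DIV4 it was 39.9%, 49.0% and 62.5% in control and 22.7%, 47.7% and 35.0% in null. No DIV2 library reached the lowest OPC value, and the control E8 clone at DIV4 was the only differentiated library above it.

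The ratio of summed inhibitors to summed D cyclins separated OPCs from DIV2, while its DIV4 range overlapped both. These ratios were not tested. The inhibitor sum includes the p19Arf transcript of Cdkn2a. The 7 inhibitors together had 0.794, 2.84 and 0.600 times the D cyclin TPM in control D7, D3 and E8 OPCs and 1.04, 1.15 and 1.57 times in the null OPCs. At DIV2 the ratio was 7.20, 3.06 and 5.74 in control and 6.25, 5.33 and 4.93 in null, above all OPC libraries. At DIV4 it was 4.36, 2.77 and 2.89 in control and 4.58, 3.13 and 3.44 in null, where control D3 was slightly below its own OPC value. Most of the difference came from the D cyclin sum, which was 104 ± 72.4 rescaled TPM in control OPCs and 12.3 ± 5.44 at DIV2, and 69.0 ± 15.5 and 12.2 ± 1.01 in null (SD, n = 3 each).

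**Figure D2:**
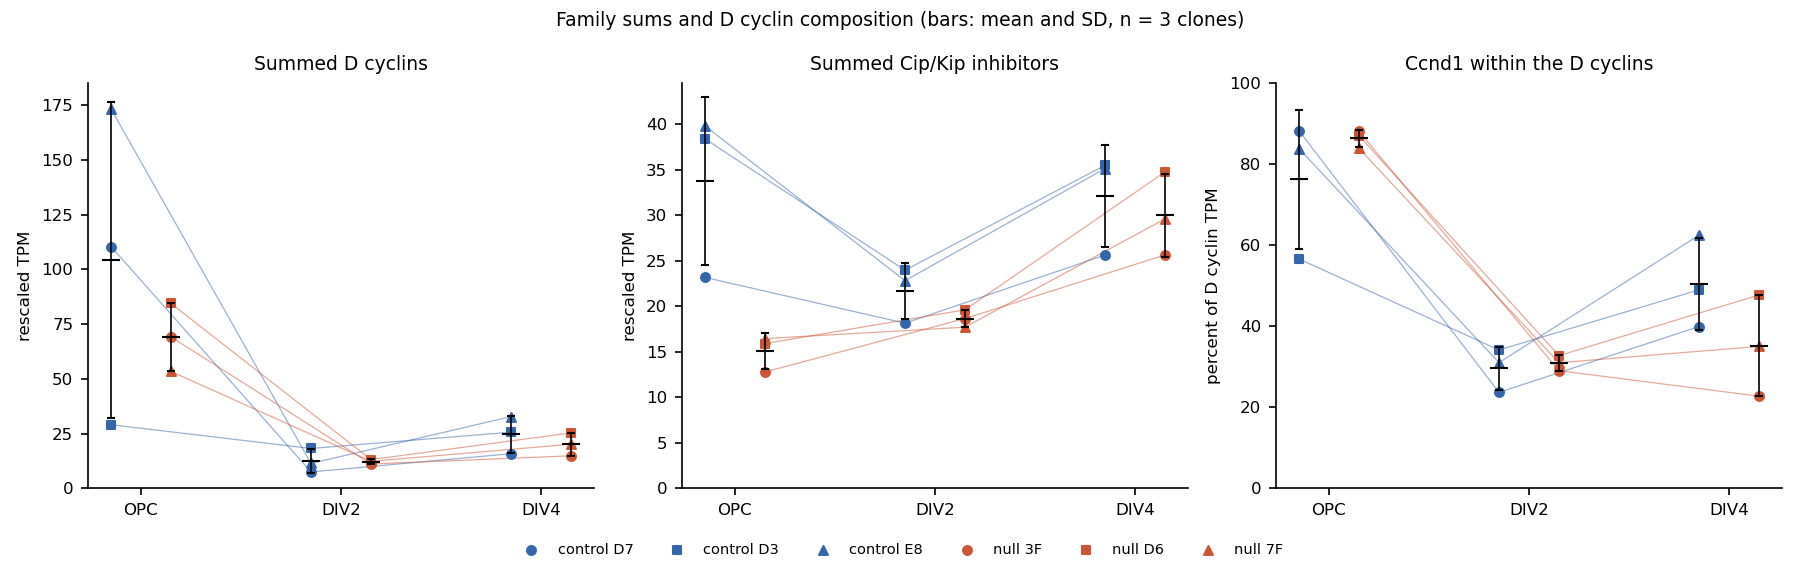
Summed D cyclins and summed Cip/Kip inhibitors (rescaled TPM, left and middle) and Ccnd1 as a percent of the D cyclin TPM (right) at each stage, with 1 point per clone and bars for the mean and SD of 3 clones. The D cyclin sum drops at DIV2 in all 6 clones, and the Ccnd1 percent, which needs no scaling, drops from 56.6 to 88.2 in OPCs to 23.7 to 34.1 at DIV2.

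Among the Cip/Kip inhibitors Cdkn1b held the most TPM in 17 of 18 libraries, with 75.7% to 94.1% of the family's total. In control E8 OPCs Cdkn1a led with 52.8%, and Cdkn1b held 47.2%. Cdkn1b (chr6:134920401-134925513, plus strand) encodes p27, which blocks CDK2 and is removed in dividing cells by the SKP2 ubiquitin ligase. It had 18.9, 31.9 and 18.8 rescaled TPM in control D7, D3 and E8 OPCs and 11.8, 13.8 and 14.96 in null 3F, D6 and 7F OPCs. At DIV2 it had 17.1, 20.97 and 17.6 in control and 14.8, 15.9 and 14.2 in null. At DIV4 it had 22.8, 28.9 and 28.2 in control and 19.7, 26.4 and 22.4 in null, the highest stage in all clones but D3.

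In null, Cdkn1b rose 1.69-fold from OPC to DIV4, with a log2 change of 0.71 (SE 0.18, limma adjusted p = 0.00811, higher in 3 of 3 clones), and the groups did not overlap. This call held on the deposited TPM (1.18, limma adjusted p = 0.047) and in the 15 other alternatives. At DIV2 the null change was 0.14 (SE 0.18, limma adjusted p = 0.613). From DIV2 to DIV4 it was 0.57 (SE 0.18, limma adjusted p = 0.127), and with the clone as a replicate block the adjusted p was 0.0463. In control the change to DIV4 was 0.23 with all libraries (SE 0.18, limma adjusted p = 0.372) and 0.47 without D3 OPCs (limma adjusted p = 0.0222). Scaling to the protein-coding total gave 0.93 (limma adjusted p = 0.00658), and the deposited TPM 2.77 (limma adjusted p = 1.01e-05).

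Cdkn1a encodes p21, the inhibitor that p53 induces after DNA damage. Cdkn1a (chr17:29090976-29100727, plus strand) had 3.98, 1.39 and 21.02 rescaled TPM in control D7, D3 and E8 OPCs, 1.02, 1.89 and 3.18 at DIV2 and 2.68, 5.77 and 5.96 at DIV4. In null it had 0.902, 0.774 and 1.29 as OPCs, 3.69, 2.13 and 3.10 at DIV2 and 5.82, 8 and 7.02 at DIV4. Each null clone was higher at each later stage, with no overlap between stages, while the 3 control OPC libraries spread over a wider range than the other 15 together. The E8 OPC value is a deposited 2.64 TPM divided by the smallest factor in the study.

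From OPC to DIV4 the mean of Cdkn1a rose 7.02-fold in null. On the log2(rescaled TPM + 1) scale the change was 2.00 (SE 0.56, limma adjusted p = 0.0141, higher in 3 of 3 clones). All 14 alternatives other than the deposited TPM kept this call, with adjusted p from 0.000514 to 0.0472, and the deposited TPM did too (2.41, limma adjusted p = 0.00136). In control the change at DIV2 was -1.14 (SE 0.56, limma adjusted p = 0.135) and at DIV4 -0.20 (SE 0.56, limma adjusted p = 0.818). Without D3 OPCs the control change at DIV2 was called (-1.85, limma adjusted p = 0.00868), and without E8 OPCs it was -0.25 (limma adjusted p = 0.646). The deposited TPM put the control change at DIV4 at 1.89 (limma adjusted p = 0.00114).

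Cdkn1c (chr7:143458339-143461050, minus strand), the imprinted p57 gene, lay between 0 and 5.08 rescaled TPM. Its highest value was in control D3 OPCs, while control E8 OPCs were listed at 0, and D7 and 3F stayed at or below 0.274 at each stage. Fitted without the filter on low values, no Cdkn1c difference was called.

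**Figure D3:**
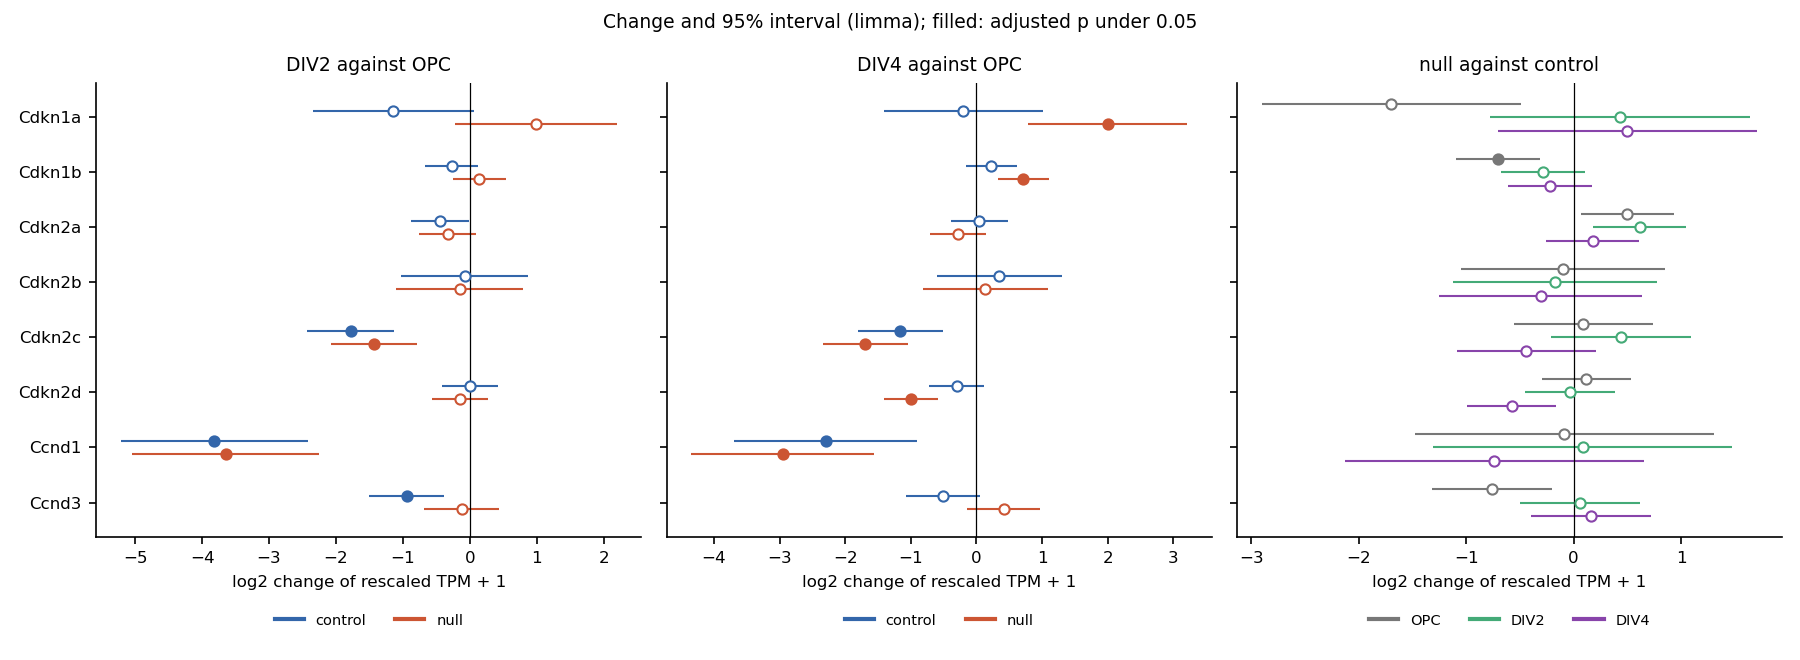
Log2 change of rescaled TPM + 1 with its 95% limma interval for the 8 tested genes, from OPC to DIV2 (left) and to DIV4 (middle) in control (blue) and null (orange), and null against control at each stage (right), with filled points for an adjusted p under 0.05. The intervals of Ccnd1 and Cdkn2c lie below 0 in both genotypes, those of Cdkn1a and Cdkn1b lie above 0 in null at DIV4, and in the right panel the Cdkn1b point for OPCs is the 1 filled point.

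Summed over both its transcripts, Cdkn2a held the most INK4 TPM in 17 of 18 libraries, and in control E8 OPCs Cdkn2c led with 39.5%. That total includes p19Arf, which is not an INK4 protein. The p16Ink4a transcript alone was below Cdkn2c or Cdkn2d in control D7 and E8 OPCs and null 3F and D6 OPCs. The same held in control D7 and D3 at DIV2, and it was highest in the other libraries. Cdkn2a (chr4:89274471-89294653, minus strand) makes 2 unrelated proteins from alternative start sites that share a second exon: p16Ink4a, which blocks CDK4 and CDK6, and p19Arf, which frees p53 from its inhibitor MDM2. It had 30.8, 26.0 and 20.5 rescaled TPM in control OPCs, 18.01, 15.2 and 22.8 at DIV2 and 23.2, 21.7 and 35.9 at DIV4. The null clones had 30.6, 43.8 and 36.2 as OPCs, 30.4, 29.2 and 26.8 at DIV2 and 30.3, 30.9 and 28.3 at DIV4. No change between stages was called, and the stages overlapped in all comparisons but that of null OPCs with null DIV2.

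The gene total hid a shift in the TPM shares of its transcripts, which have different annotated starts. These shares rest on the quantifier and were not tested, and no start site was measured. The upstream sequences of both Cdkn2a starts are shown because their transcripts moved apart, together with that of the short Cdkn2c transcript, which did so as well. They come from the RefSeq promoter table (GRCm38.p6), on the minus strand, 5′ to 3′, cut at the start of the annotated exon. Capitals mark the letters TTTNNCGC (an E2F-type motif) and GGGCGG (a GC box), searched on both strands, and no marked match overlaps another. The windows searched run from 250 bases before to 50 after each start. The p19Arf window (chr4:89294570-89294869, of which chr4:89294654-89294869 is printed) held 1 E2F-type match and 3 GC boxes, 1 of these in the printed part. The p16Ink4a window (chr4:89282143-89282442, printed chr4:89282193-89282442) held 1 E2F-type match and 1 GC box, the latter outside the printed part. The short Cdkn2c window (chr4:109665323-109665622, printed chr4:109665373-109665609) held neither.
p19Arf start of Cdkn2a: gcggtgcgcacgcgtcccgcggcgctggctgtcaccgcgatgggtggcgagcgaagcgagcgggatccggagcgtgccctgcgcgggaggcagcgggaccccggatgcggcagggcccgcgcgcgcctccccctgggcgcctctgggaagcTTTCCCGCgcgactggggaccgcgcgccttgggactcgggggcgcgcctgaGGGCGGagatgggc
p16Ink4a start of Cdkn2a: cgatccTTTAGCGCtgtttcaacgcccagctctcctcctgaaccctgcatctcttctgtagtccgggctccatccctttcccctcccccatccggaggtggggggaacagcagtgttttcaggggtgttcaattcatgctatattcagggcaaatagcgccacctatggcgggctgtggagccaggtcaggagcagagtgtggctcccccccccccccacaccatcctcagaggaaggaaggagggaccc
Short Cdkn2c start: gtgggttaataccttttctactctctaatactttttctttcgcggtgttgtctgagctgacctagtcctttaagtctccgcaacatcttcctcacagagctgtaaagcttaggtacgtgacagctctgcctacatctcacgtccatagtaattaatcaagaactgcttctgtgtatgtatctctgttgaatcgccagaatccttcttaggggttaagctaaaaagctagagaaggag
Of 32851 promoters in that table, 5.17% held TTTNNCGC and 35.7% held GGGCGG. The window at the long Cdkn2c start (chr4:109666707-109667006), which lies inside the annotated exon and is not printed, held no TTTNNCGC and 4 GGGCGG. TNNNGGCA, the core letters of the motif reported for THAP1, occurred in all 4 windows and in 42% of promoters. A match is a run of letters and not a measured site.

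The p16Ink4a transcript (ENSMUST00000060501, first exon chr4:89281986-89282192) held 32.2%, 52.7% and 50.9% of Cdkn2a TPM in control D7, D3 and E8 OPCs and 43.5%, 42.0% and 45.5% in null 3F, D6 and 7F OPCs. At DIV2 its share was 55.1%, 49.7% and 68.6% in control and 67.9%, 59.0% and 69.9% in null. At DIV4 it was 73.4%, 62.7% and 81.6% in control and 69.1%, 69.6% and 73.6% in null. The share was higher at DIV4 than in OPCs in 6 of 6 clones, and all DIV4 values lay above all OPC values. The p19Arf transcript (ENSMUST00000107131, first exon chr4:89294334-89294653) had 14.4 ± 5.71 rescaled TPM in control OPCs and 20.8 ± 4.19 in null OPCs. It had 6.95 ± 0.991 and 8.73 ± 1.10 at DIV4 (SD, n = 3 each). The p16Ink4a transcript went from 11.4 ± 2.03 to 20.0 ± 8.27 in control and from 16.04 ± 2.57 to 21.1 ± 0.364 in null.

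Cdkn2c encodes p18, an INK4 protein that is high in many dividing progenitors. Cdkn2c (chr4:109660876-109667189, minus strand) had 19.2, 8.55 and 25.4 rescaled TPM in control D7, D3 and E8 OPCs, 4.26, 3.75 and 4.00 at DIV2 and 6.74, 4.63 and 9.41 at DIV4. The null clones had 15.5, 20.6 and 16.1 as OPCs, 6.23, 6.64 and 4.68 at DIV2 and 4.37, 5.803 and 3.97 at DIV4. All 6 clones were highest as OPCs, D3 by the least.

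The mean of Cdkn2c fell 4.42-fold at DIV2 in control, with a log2 change of -1.78 (SE 0.30, limma adjusted p = 0.000593), and 2.98-fold in null, with one of -1.43 (SE 0.30, limma adjusted p = 0.00312). At DIV4 the change was -1.16 in control (SE 0.30, limma adjusted p = 0.0101) and -1.69 in null (SE 0.30, limma adjusted p = 0.000715). The 3 calls other than control at DIV4 held in all 15 alternatives besides the deposited TPM. The control call at DIV4 was lost with protein-coding scaling (-0.49, limma adjusted p = 0.118) and in a fit on the 6 libraries compared (limma adjusted p = 0.197), and without D3 OPCs it was -1.59 (limma adjusted p = 0.000161). The deposited TPM gave 0.61 and 1.29 in control, the other direction, and -1.05 and -1.29 in null (limma adjusted p = 0.028 and 0.00756).

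The fall of Cdkn2c came with a change in the TPM shares of its transcripts in all clones but control D3. The long transcript (ENSMUST00000097921, first exon chr4:109665610-109667189) held 60.1%, 10.7% and 55.6% of the gene's TPM in control D7, D3 and E8 OPCs and 44.03%, 49.2% and 41.1% in the null OPCs. At DIV2 it held 16.6%, 26.4% and 21.9% in control and 12.9%, 21.4% and 13.1% in null, and at DIV4 17.9%, 19.2% and 28.5% and 9.66%, 19.9% and 16.7%. Apart from control D3, whose OPC library had the lowest OPC share, all OPC libraries lay above all differentiated ones. In rescaled TPM the long transcript went from 7.87 ± 1.98 in null OPCs to 0.945 ± 0.420 at DIV2, while the short transcript (ENSMUST00000063531) went from 9.57 ± 0.899 to 4.90 ± 0.733 (SD, n = 3 each). In control without D3 the long form had 57.9% ± 3.14 in OPCs (SD, n = 2). Of the 31-base words of each transcript, 64.7% were found in the long form alone and 19.9% in the short form alone, against 33.3% for p16Ink4a and 36.6% for p19Arf, so the split rests partly on the quantifier. These shares were not tested.

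**Figure D4:**
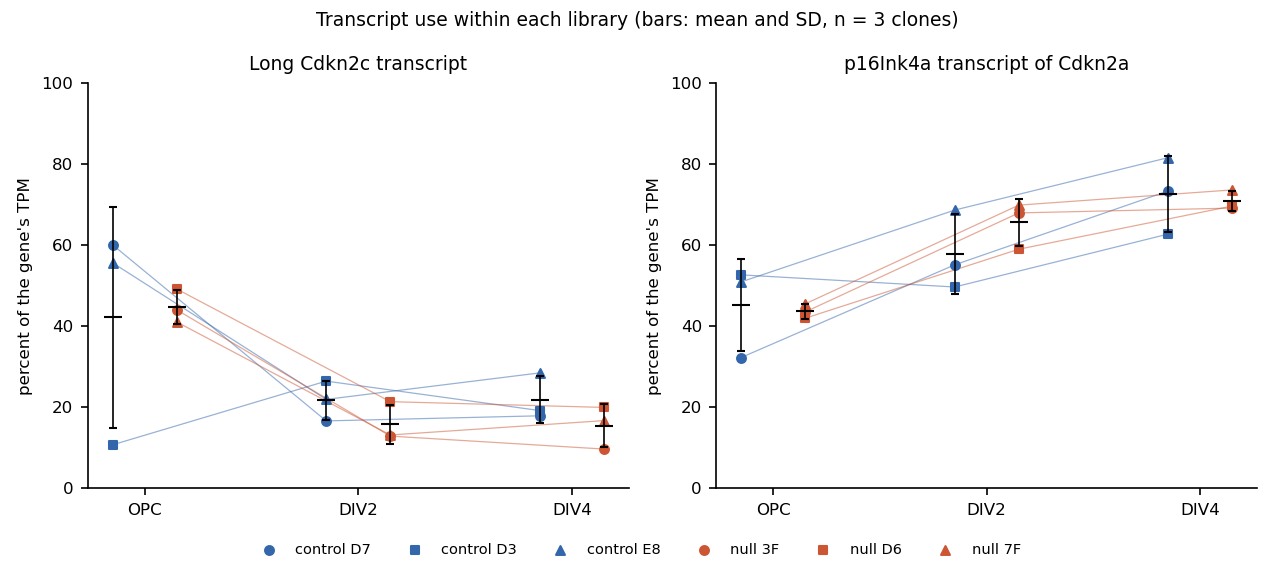
Percent of the gene's TPM held by the long Cdkn2c transcript (left) and the p16Ink4a transcript of Cdkn2a (right), 0 to 100 on the vertical axis, at each stage, with 1 point per clone and bars for the mean and SD of 3 clones. The long Cdkn2c form is at 41.1 to 60.1 in 5 of 6 OPC libraries, with control D3 at 10.7, and at 9.66 to 28.5 afterwards, and the p16Ink4a form climbs to 62.7 to 81.6 at DIV4.

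Cdkn2d (chr9:21288410-21291407, minus strand), the p19Ink4d gene, was called lower at DIV4 in null and, with all libraries, not in control. It had 14, 9.11 and 16.2 rescaled TPM in control OPCs, 12.7, 12.2 and 13.7 at DIV2 and 12.9, 8.05 and 10.1 at DIV4. The null clones had 11.4, 16.7 and 14.2 as OPCs, 13.4, 13.4 and 11.0 at DIV2 and 6.41, 6.85 and 6.22 at DIV4, where they lay below every other library. From OPC to DIV4 the null mean fell 2.17-fold, with a log2 change of -0.998 (SE 0.19, limma adjusted p = 0.00134, lower in 3 of 3 clones). This call held in all 15 alternatives other than the deposited TPM, on which it was -0.57 (limma adjusted p = 0.0924). From DIV2 to DIV4 the null change was -0.85 (SE 0.19, limma adjusted p = 0.0393), the 1 call among members in that comparison (2.03% of all genes called, 0.977% lower). It was lost on leaving out any 1 of the 6 libraries (-0.94 to -0.81, limma adjusted p from 0.0886 to 0.149) and on the deposited TPM, where 0.52% of all genes were called. In control the change at DIV4 was -0.30 (SE 0.19, limma adjusted p = 0.258), -0.52 without D3 OPCs (limma adjusted p = 0.0321) and 0.38 with protein-coding scaling (limma adjusted p = 0.0394), so the direction in control depended on the scaling.

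Cdkn2b (chr4:89306299-89311039, minus strand), the p15 gene beside Cdkn2a, stayed low, at 0.354 to 4.20 rescaled TPM. Control E8 was the highest control clone at each stage, with 2.14, 1.86 and 4.20, and no change was called. From DIV2 to DIV4 in control, limma called 0 of the 8 members, beside 0.233% of all genes. An unadjusted p under 0.05 was met by 3 (Ccnd1, Cdkn1b and Cdkn2a, all higher). The share of all genes at that unadjusted threshold was not counted.

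Among the tested members, the control clones at DIV4 rose in the order D7, D3, E8 only for Ccnd1, Cdkn1a and Cdkn2b. Control D7, with the astrocyte sum of 13.95, had the lowest Ccnd1, Ccnd3, Cdkn1a, Cdkn1b and Cdkn2b of the 3. E8, with the sum of 497, had the highest Ccnd1, Cdkn1a, Cdkn2a, Cdkn2b and Cdkn2c. D3 had the highest Ccnd3 and Cdkn1b and the lowest Cdkn2a and Cdkn2c. Cdkn2d was highest in D7 (12.9, against 8.05 in D3 and 10.1 in E8). D7 also had the most Mbp, at 4770 rescaled TPM against 925 in D3 and 665 in E8. In null, D6 had the lowest astrocyte sum (194), the most Mbp (574) and the highest value of each tested member but Cdkn2b. The part of astrocyte-lineage or oligodendrocyte-lineage RNA in these levels was not tested.

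Between genotypes, limma called 1 of 8 members in OPCs, a share close to that of all genes (11.5% called, 5.63% lower), 0 at DIV2 (2.78% called) and 0 at DIV4 (4.82% called). At an unadjusted p under 0.05 the counts were 4, 1 and 1, and the share of all genes at that threshold was not counted. Without control D3 OPCs 3 members were called in OPCs, beside 17.5% of all genes. In OPCs Cdkn1b was 1.72-fold lower in null with no overlap, with a log2 difference of -0.70 (SE 0.18, limma adjusted p = 0.0239). Without control D3 it was -0.46 (limma adjusted p = 0.0469). Without null 3F it was -0.61 (limma adjusted p = 0.0828) and without null D6 -0.72 (limma adjusted p = 0.0524). Protein-coding scaling gave -0.30 (limma adjusted p = 0.405) and the deposited TPM 1.21 in the other direction (limma adjusted p = 0.0121).

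Cdkn1a was also lower in each null OPC library than in any control one, by -1.69 (SE 0.56, limma adjusted p = 0.0666). Without control D3 the difference was -2.41 (limma adjusted p = 0.0058) and without control E8 -0.80 (limma adjusted p = 0.202). Ccnd3 differed by -0.76 (limma adjusted p = 0.0746), again with no overlap, and by -0.96 without D3 (limma adjusted p = 0.0299). For Ccnd1 the difference in OPCs was -0.08, with a 95% interval from -1.48 to 1.31, and for Cdkn2c it was 0.09, from -0.56 to 0.74. On the deposited TPM 6 members were called higher in null OPCs, as were 80.7% of all genes.

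In differentiated cells the separations between genotypes were small. At DIV2 Cdkn2a was 1.54-fold higher in null with no overlap, with a log2 difference of 0.62 (SE 0.20, 95% interval 0.19 to 1.05, limma adjusted p = 0.138). Cdkn1b differed by -0.29 and Cdkn2c by 0.44, both without overlap and not called (limma adjusted p = 0.508 and 0.549). At DIV4 Cdkn2d was 1.59-fold lower in null with no overlap, with a log2 difference of -0.58 (SE 0.19, 95% interval -0.99 to -0.16, limma adjusted p = 0.106). Ccnd1 differed by 0.08 at DIV2, with an interval from -1.31 to 1.48, and by -0.74 at DIV4, from -2.13 to 0.66.

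The changes over time were then compared between genotypes. Limma called 0 of 8 members for a different change to DIV2 (0.349% of all genes called) and 0 for DIV4 against OPC (2.68% called). For DIV4 against DIV2 it called 0 (0.0233% of all genes called). An unadjusted p under 0.05, where the share of all genes was not counted, was met by 2, 3 and 0 members. The rise of Cdkn1a in null is therefore not shown to differ from control with all libraries: the difference in change was 2.13 at DIV2 (SE 0.80, limma adjusted p = 0.252) and 2.20 at DIV4 (SE 0.80, limma adjusted p = 0.144). Without control D3 OPCs these were 2.84 (limma adjusted p = 0.0387) and 2.91 (limma adjusted p = 0.0192), and without control E8 OPCs 1.24 (limma adjusted p = 0.301) and 1.30 (limma adjusted p = 0.177). For Cdkn1b the change to DIV4 differed by 0.49 (SE 0.26, limma adjusted p = 0.319), and without control D3 OPCs by 0.24 (limma adjusted p = 0.479). For Cdkn2d the change to DIV4 differed by -0.70 (SE 0.28, limma adjusted p = 0.178), and with protein-coding scaling by -1.01 (limma adjusted p = 0.0193). On the deposited TPM 5 and 6 members were called lower in the DIV2 and DIV4 comparisons, with 72.4% and 73.2% of all genes.

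The gene lists around the members were read against the same shares of all genes called, 33.7% at DIV2 and 31.2% at DIV4 in control and 26.9% and 32.5% in null. Without D3 OPCs the control shares were 39.6% and 37.9%. On the deposited TPM 83.1% and 87.9% of all genes were called higher in control, and 3.51% and 4.42% lower in null. The proliferation readouts were lower after the growth medium in both genotypes. Of 18 tested genes such as Mki67, the Mcm helicase subunits and Top2a, 17 fell at DIV2 and 12 at DIV4 in control (18 and 18 without D3 OPCs), and 18 and 18 in null. Their median log2 changes were -2.55, -1.97, -3.04 and -3.24, beside medians of all genes between -0.01 and 0.05. Limma called 0 of the 18 between genotypes at any stage. At an unadjusted p under 0.05, where the share of all genes was not counted, there were 2, 2 and 0. In OPCs their median difference, null minus control, was 0.74. Without control D3 it was -0.41 and 3 were lower in null, beside 17.5% of all genes called in either direction. On the deposited TPM all 18 were higher in null, as were 80.7% of all genes. Birc5, Top2a and Cdc20 fell by 2.68, 2.48 and 2.40 in control at DIV4. In control Mki67 was 0.273, 0.738 and 0.371 rescaled TPM at DIV2 and 1.10, 1.72 and 1.73 at DIV4. In the deposited TPM 4 of these genes fell and 3 rose in control at DIV2 (median -0.70), 0 fell and 3 rose at DIV4 (median 0.14), and 17 fell in null at either time.

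Of 14 tested kinases and cyclins that work with or after the D cyclins, 1 rose and 9 fell at DIV2 and 8 fell at DIV4 in control, and 9 and 11 fell in null. Without D3 OPCs the control counts were 1 higher and 10 lower at DIV2 and 1 and 11 at DIV4, beside 39.6% and 37.9% of all genes. On the deposited TPM they were 5 higher and 2 lower at DIV2 and 8 and 0 at DIV4. There 83.1% and 87.9% of all genes were called higher in control, larger shares than in this list. In null 8 and 9 of the list were lower, beside 3.51% and 4.42% of all genes. The direction of the control calls thus depended on the scaling. Cdk1, the mitotic kinase, changed by -2.49 in control at DIV4 (SE 0.77, limma adjusted p = 0.0248), Ccnb1 by -2.34 (limma adjusted p = 0.00725) and Ccna2 by -2.17 (limma adjusted p = 0.0248). Cdk4, a kinase partner of the D cyclins, had 265 ± 46.4 rescaled TPM in control OPCs and 164 ± 16.02 at DIV4, and 263 ± 26.3 and 128 ± 6.93 in null (SD, n = 3 each). It fell by 0.67 in control at DIV4 (limma adjusted p = 0.00227) and by 1.03 in null (limma adjusted p = 8.13e-05); with the deposited TPM it rose by 2.09 in control. Cdk6 was at or below 2.21 rescaled TPM and was not tested.

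Of 10 tested genes of the pocket protein, E2F and DP list, 1 rose and 3 fell in control at both times, and 4 and 5 fell in null at DIV2 and DIV4. Without D3 OPCs 1 rose and 4 fell in control at both times, beside 39.6% and 37.9% of all genes called. On the deposited TPM 8 rose and 0 fell, beside 83.1% and 87.9% of all genes called higher. Rbl1 (p107), which is made in cycling cells, fell by 1.09 in control at DIV4 (limma adjusted p = 0.0354) and by 1.77 in null (limma adjusted p = 0.00205). Rbl2 (p130), which builds the repressor complex of resting cells, changed by 0.46 (limma adjusted p = 0.109) and 0.39 (limma adjusted p = 0.169). Rb1 changed by 0.30 (limma adjusted p = 0.431) and 0.60 (limma adjusted p = 0.108). Tfdp1 and E2f4 fell by 1.05 and 0.67 in control at DIV4 (limma adjusted p = 0.00112 and 0.0236). E2f5, picked out here after its values were seen, rose by 0.53 in control and fell by 0.56 in null at DIV4, and the 2 changes differed by -1.09 (limma adjusted p = 0.0234). Of 8 tested DREAM and MuvB subunits, 3 and 2 fell in control and 3 and 4 in null, where 1 rose at DIV4. Without D3 OPCs 1 rose and 4 fell in control at both times, and on the deposited TPM 6 rose and 0 fell, beside the same shares of all genes. Foxm1 and Lin9 fell by 1.93 and 0.76 in control at DIV4 (limma adjusted p = 0.00734 and 0.025).

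Of 16 tested genes that degrade p27, p21 and the D cyclins, 2 rose and 3 fell at DIV2 in control and 2 rose and 4 fell at DIV4, shares close to those of all genes, and 4 rose and 5 fell in null at either time. Without D3 OPCs 3 rose and 5 fell in control at DIV2 and 2 and 4 at DIV4, beside 39.6% and 37.9% of all genes called. On the deposited TPM 13 rose and 0 fell at both times, beside 83.1% and 87.9% of all genes called higher. Skp2, the receptor for p27, had 7.40 ± 2.94 rescaled TPM in control OPCs and 1.98 ± 0.519 at DIV4, and 6.81 ± 1.62 and 1.94 ± 0.145 in null (SD, n = 3 each). It fell at DIV2 by 1.38 in control (limma adjusted p = 0.000469) and by 1.17 in null (limma adjusted p = 0.00179). Its partner subunits Cks1b and Cks2 fell by 1.49 and 2.14 in control at DIV4 (limma adjusted p = 0.0209 and 0.0063), and Dtl, which marks p21 for destruction in S phase, by 1.498 (limma adjusted p = 0.0253). Without rescaling, Skp2 changed in control by 0.66 at DIV2 (limma adjusted p = 0.0904).

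Of 20 tested upstream regulators, 3 rose and 7 fell at DIV2 and 2 and 6 at DIV4 in control, and 5 rose and 4 fell at both times in null. Without D3 OPCs 2 rose and 6 fell in control at DIV2 and 3 and 4 at DIV4, beside 39.6% and 37.9% of all genes called. On the deposited TPM 13 and 16 rose and 0 fell, beside 83.1% and 87.9% of all genes called higher. Pdgfra, the receptor of the mitogen, fell by 1.87 in control (limma adjusted p = 0.0386) and by 2.9 in null (limma adjusted p = 0.00313) at DIV4, and Hes5, a Notch target, by 1.99 in control (limma adjusted p = 0.0388). Myc, which drives growth and D cyclin genes, had 28.9 ± 2.66 rescaled TPM in control OPCs and 8.98 ± 6.07 at DIV4, against 14.95 ± 2.93 and 18.98 ± 4.24 in null (SD, n = 3 each). It fell by 1.80 in control (limma adjusted p = 0.00349) and changed by 0.32 in null (limma adjusted p = 0.569), and those changes differed by 2.12 with an adjusted p of 0.0543 by limma. Without rescaling, the difference for Myc was 0.00 (limma adjusted p = 0.999).

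Trp53, which encodes the p53 regulator of Cdkn1a, separated the genotypes once the cells had left the growth medium. Its DIV4 levels were 7.79, 6.40 and 5.42 rescaled TPM in clones D7, D3 and E8 of the control and 15.3, 13.6 and 15.1 in null 3F, D6 and 7F. At DIV4 it was higher in null by 1.06 (SE 0.18, limma adjusted p = 0.00324) and at DIV2 by 0.80 (SE 0.18, limma adjusted p = 0.024), while in OPCs the difference was 0.02 (limma adjusted p = 0.955). Without rescaling, the DIV4 difference was 0.94 (limma adjusted p = 0.114). At the same stage Cdkn1a, its target, differed by 0.50 (limma adjusted p = 0.677). Tcf7l2, a Wnt effector needed in oligodendrocyte differentiation, was lower in null at DIV4 by -1.23 (limma adjusted p = 0.025). The other list genes called between genotypes, picked out after their values were seen, were E2f5 and Skp1a (higher) and Rb1, Foxo3 and Mdm2 (lower) in OPCs, and Smad3 (higher) at DIV2.

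The genes whose levels ran closest to each member were found among the 8184 genes that averaged 5 TPM or more, by Pearson's r over the 18 libraries, which share clones and stages. Ccnd1 ran with the mitotic kinesin Kif11 (r = 0.968) and the progenitor filament Nes (r = 0.967). Cdkn2c ran with the histone genes Hist1h2al (r = 0.971) and Hist1h2an (r = 0.969). Cdkn1b was closest to Stx6 (r = 0.924) and Scg3 (r = 0.893), Cdkn2d to Aifm1 (r = 0.901) and Pomp (r = 0.899), and Cdkn1a to Emc1 (r = 0.883) and Irf2bpl (r = 0.877). The highest values for Ccnd3 (Vps9d1, r = 0.859), Cdkn2a (Pla2g12a, r = 0.82) and Cdkn2b (Mrps6, r = 0.752) were lower. These are descriptions of 18 libraries and carry no test.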

How the data were processed

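Total RNA was depleted of ribosomal RNA and made into stranded libraries, per the labels' protocols. The authors deposited TPM per transcript (93666 transcripts of 38046 genes in 18 libraries). The submitters' processing notes name STAR, Picard and mm10, while the quantifier, its annotation and its use of strand are not given in the sources used here. Transcripts were summed per gene and divided by median-of-ratios factors from 11432 genes. Before testing, 25 gene names that a spreadsheet had turned into dates were restored. Limma 3.58.1 (R 4.3.3) fitted 1 mean per group on log2(rescaled TPM + 1) over 18 libraries with a mean trend, and p-values were adjusted by Benjamini-Hochberg over all 12894 genes of a comparison. The adjusted p-values are from that fit, except those given for an alternative, each of which was fitted and adjusted on its own.

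The same clonal lines recur at each stage, so the clone pairs the stage comparisons: deviations from group means correlated by 0.119 on average within a clone (lowest -0.0135) and by -0.0594 between clones. GENCODE M21 (GRCm38), which held 96.5% of the transcript IDs, gave loci, and the RefSeq table (GRCm38.p6) gave promoters. The members and lists were chosen with earlier results of these data known. All 10 members were named, with the 3 largest called changes of each list in control at DIV4 and between genotypes at DIV4, and Cdk4, Cdk6, Rb1, Rbl1, Rbl2, Skp2, Mki67, Trp53 and Thap1. The alternatives were the deposited TPM, quantile and protein-coding scaling, a pseudocount of 0.1, no filter or 5 TPM, no trend, only the libraries compared, a clone block and each library left out. Summing only protein-coding transcripts was chosen after seeing the data.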

Additional observations from a re-analysis of the deposited data

Results flagged for a closer look

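Cdkn2c moved in opposite directions from DIV2 to DIV4 in the genotypes. It was higher at DIV4 in all 3 control clones (0.62 on the log2 scale, limma adjusted p = 0.511) and lower in all 3 null clones (-0.26, limma adjusted p = 0.735). Subtracting the control change from the null one gave -0.88 (SE 0.43, 95% interval -1.80 to 0.03, limma adjusted p = 0.914), so the difference did not pass the test.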

How the results depend on the processing

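On the deposited TPM the following log2 changes took the other sign and were called on the deposited TPM, the rescaled TPM or both. Others that changed sign without a call, such as Cdkn1a in control at DIV2 (-1.14 to 0.80), are not listed. In control at DIV2, Cdkn1b was at 2.23, Cdkn2a 2.08, Cdkn2c 0.61 and Ccnd3 1.497; at DIV4, Cdkn1a was at 1.89, Cdkn2c 1.29, Cdkn2d 2.11, Ccnd1 0.37 and Ccnd3 1.98. Between genotypes in OPCs, Cdkn1b was at 1.21, Ccnd1 1.97 and Ccnd3 1.13. The differences in change were -1.68 (Cdkn1b), -1.99 (Cdkn2a), -1.66 (Cdkn2c) and -1.23 (Ccnd3) to DIV2, and -1.59 (Cdkn1b) and -1.12 (Ccnd3) to DIV4. By the same rule, protein-coding scaling turned Cdkn2d in control at DIV4 to 0.38. The cause was not tested.

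In control at DIV4 the 2 calls became 7 on the deposited TPM, 4 with protein-coding scaling and 0 with only the libraries compared, and 1 to 4 with a library left out. From DIV2 to DIV4 in null the 1 call became 0 on the deposited TPM or with no filter, 4 with only the libraries compared, 2 with the clone as a replicate block, and 0 with any library left out. Between genotypes in OPCs the 1 call became 6 on the deposited TPM, 2 with quantile scaling, protein-coding scaling or a pseudocount of 0.1, and 0 with only the libraries compared, and 0 to 3 with a library left out. Differences in change to DIV2 went from 0 calls to 5 on the deposited TPM and 0 to 1 with a library left out. Those to DIV4 went from 0 to 6 and, with protein-coding scaling, 1, and 0 to 1 with a library left out. In control at DIV2 the 3 calls became 2 to 4 with a library left out. The replicate block changed no other count. Depth is unknown, and 3 clones a group limit the precision.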
